A study of Mus musculus with 79 samples.

Results

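The serotonin receptor genes described here are Htr1a, Htr1b, Htr1d, Htr1f, Htr2a, Htr2c, Htr3a, Htr4, Htr5a and Htr7. They were taken by gene name, and all 10 were found among the 38879 genes of the deposited table. The libraries came from 20 male mice of the C57Bl/6J strain, and each held 130 neurons of 1 type cut from the medial prefrontal cortex. Cells were recognised with RNAscope probes on frozen sections 12 µm thick and cut out by laser. PYR is the pyramidal (excitatory) type, and PV, SST and VIP are inhibitory interneurons named for parvalbumin, somatostatin and vasoactive intestinal peptide. UCMS mice lived alone and met 1 to 4 mild stressors a day for 5 weeks, while Control mice lived in groups with their littermates, so stress and single housing cannot be told apart. All mice, UCMS and Control, went through behavioural tests before they were killed. There were 10 libraries in each combination of type and arm, except 9 in UCMS PV neurons, where mouse U609 is not represented. A mouse number (U601 to U610 for UCMS, U1 to U10 for Control) marks the same animal in every type.

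Serotonin reaches the prefrontal cortex through axons of raphe neurons in the brainstem and acts on receptors that differ in their coupling. Htr1 and Htr5 receptors couple to Gi/o proteins and usually dampen a cell, Htr2 receptors couple to Gq/11 and release calcium from internal stores, and Htr4, Htr6 and Htr7 raise cyclic AMP through Gs. Htr3 receptors are ion channels that open within milliseconds, and in the cortex Htr3a is a known marker of interneurons derived from the caudal ganglionic eminence, which include VIP cells.

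Read totals recovered from the table ran between 3642579 and 13529571 a library, and between 9033 and 20307 genes had at least 1 read. Under 6000000 reads were found in 7 libraries (2 UCMS VIP, 4 Control VIP and 1 Control PV), and leaving them out, a choice made after the data were seen, is named where it changed a call. Summed markers of each type were highest in the libraries of that type. Pyramidal marker RNA was present in every interneuron group: the 6 pyramidal markers summed to 7577 normalized counts in UCMS VIP and 7168 in Control VIP libraries, against 18057 in UCMS PYR and 20015 in Control PYR libraries. Summed VIP markers averaged 827 in UCMS SST and 792 in Control SST libraries, against 69.6 or less in PV and PYR libraries of either arm. Vip itself averaged 16.4 in UCMS SST and 35.7 in Control SST libraries, against 4423 in UCMS VIP and 5104 in Control VIP libraries. Whether marker RNA found outside its own type was carried over from other cells, and its part in the levels below, was not tested. Values are normalized counts, that is, reads divided by the authors' size factor for each library, and 3 reads equal between 1.87 and 7.18 of them, depending on the library.

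In GRCm38 coordinates from the GENCODE M21 annotation, Htr3a lies at chr9:48899213-48911099 on the minus strand and Htr2c at chrX:146962513-147197277 on the plus strand. Htr2a spans chr14:74640840-74709494 on the plus strand, and Htr7 spans chr19:35958734-36057507 on the minus strand. Htr1a is a gene of 1 exon at chr13:105443639-105448122 on the plus strand. An antisense gene, D430036J16Rik, overlaps the exons of Htr1b, and since the strand setting of the counting is not given, their reads cannot be told apart. Htr2c holds 8 small RNA genes in its introns, and none of them overlaps an exon.

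RefSeq promoter sequences (GRCm38.p6, 250 bases before to 50 after the start site) matched 8 of the 10 members. Those of Htr2a, Htr2c and Htr7 are shown because these genes, with Htr3a, differed between neuron types in both arms. The windows are chr14:74640624-74640923 on the plus strand for Htr2a, chrX:146962263-146962562 on the plus strand for Htr2c and chr19:36057311-36057610 on the minus strand for Htr7. The GENCODE M21 start of Htr2a, chr14:74640840, and that of Htr7, chr19:36057507, lie inside these windows, before the RefSeq start site. Bases counted as before the start site thus lie partly within the annotated gene for Htr2a and Htr7. Capitals mark matches, on either strand, to any of 5 motifs: the TATA box (TATAAA), the CCAAT box, the GC box of Sp1 factors (GGGCGG), the cyclic AMP response element (TGACGTCA) and the steroid receptor half-site (AGAACA).
Htr2a: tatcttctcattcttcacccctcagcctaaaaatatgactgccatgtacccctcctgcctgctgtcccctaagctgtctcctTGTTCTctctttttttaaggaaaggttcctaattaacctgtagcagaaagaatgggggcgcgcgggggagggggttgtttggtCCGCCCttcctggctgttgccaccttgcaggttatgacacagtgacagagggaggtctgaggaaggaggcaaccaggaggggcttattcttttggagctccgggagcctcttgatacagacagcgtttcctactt
Htr2c: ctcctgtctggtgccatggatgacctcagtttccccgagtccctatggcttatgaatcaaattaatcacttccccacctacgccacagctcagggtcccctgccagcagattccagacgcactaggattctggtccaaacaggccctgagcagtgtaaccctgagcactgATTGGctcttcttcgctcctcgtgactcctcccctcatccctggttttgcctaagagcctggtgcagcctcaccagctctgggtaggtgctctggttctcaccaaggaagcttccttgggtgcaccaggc
Htr7: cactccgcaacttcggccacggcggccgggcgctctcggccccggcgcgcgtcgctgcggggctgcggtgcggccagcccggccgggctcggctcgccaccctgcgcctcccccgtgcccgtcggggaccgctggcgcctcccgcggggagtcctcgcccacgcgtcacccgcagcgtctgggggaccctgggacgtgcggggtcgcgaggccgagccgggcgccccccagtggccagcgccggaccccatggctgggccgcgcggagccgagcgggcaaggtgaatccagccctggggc
The Htr2a promoter holds GGGCGG and AGAACA on its opposite strand, beginning 85 and 168 bases before the start site. The Htr2c promoter holds CCAAT on its opposite strand, 80 bases before the start. None of the 5 motifs is present in these 300 bases of Htr7, of which 81.0% are G or C, more than in 99.3% of the promoters listed. Over all 32851 promoters of this length, TATAAA occurred in 13.6%, CCAAT in 37.4%, GGGCGG in 35.7%, TGACGTCA in 1.79% and AGAACA in 19.0%. A match is only a description of the letters.

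Among the 10 genes, the highest mean level per kb of annotated exon belonged to Htr3a in VIP, Htr1a in SST and Htr2a in PV libraries of both arms. In VIP libraries Htr3a led with 499 ± 248 normalized counts per kb, followed by Htr2c with 76.3 ± 28.9 (SD, n = 20). Htr3a made up 69.6% of the summed level of the 10 genes per kb there. In SST libraries Htr1a led with 58.9 ± 35.4 per kb, ahead of Htr7 with 40.8 ± 38.7 (SD, n = 20). In PV libraries Htr2a led with 51.0 ± 26.3 per kb, ahead of Htr5a with 34.6 ± 21.9 (SD, n = 19). In PYR libraries Htr5a, with 35.1 ± 22.1 per kb, and Htr2a, with 33.0 ± 22.9, lay within each other's spread (SD, n = 20). Htr5a was the higher in UCMS PYR libraries, with 36.7 against 30.9, and Htr2a in Control PYR libraries, with 35.1 against 33.5. The leading gene of SST and that of PV libraries also lay within 1 SD of the next. Fewer cells that express a gene and less RNA in each cell cannot be told apart in these libraries.

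**Figure D1:**
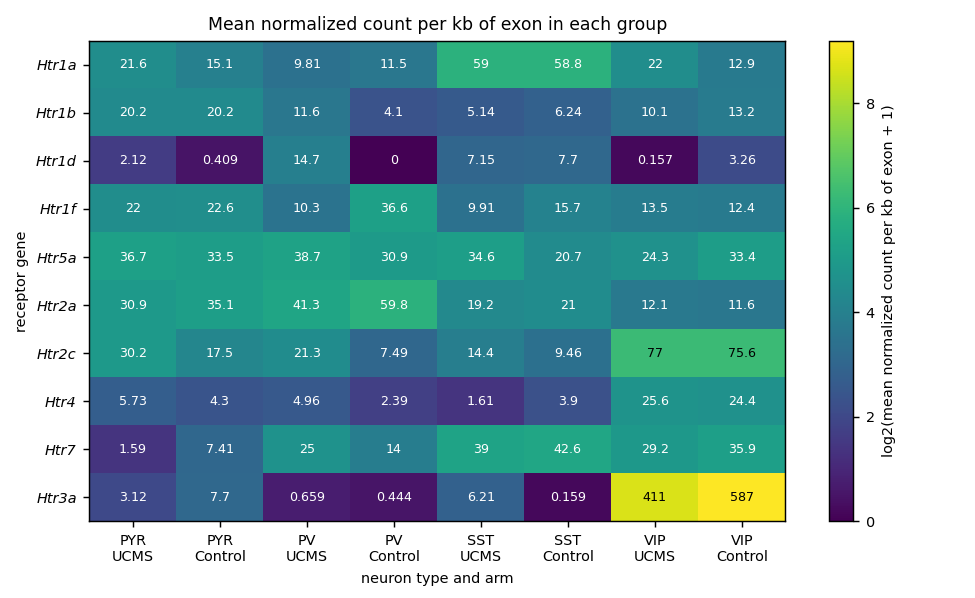
Mean level of each receptor gene (rows) in each neuron type and arm (columns), in normalized counts per kb of exon, with colour on a log2 scale. Htr3a stands at 411 in UCMS VIP and 587 in Control VIP libraries, and Htr1a is brightest in SST and Htr2a in PV columns.

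Detection differed widely among the members. Htr2c had reads in 76 of the 79 libraries, Htr5a in 73, Htr2a in 68 and Htr1a in 66. Htr1b had reads in 58, Htr7 in 56, Htr1f in 45 and Htr4 in 42. Htr3a was found in 37 libraries, 20 of them from VIP neurons, and Htr1d in 19. The type with the highest mean was the same in UCMS and Control mice for 7 of the 10 members; the exceptions were Htr1d, Htr1f and Htr5a.

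**Figure D2:**
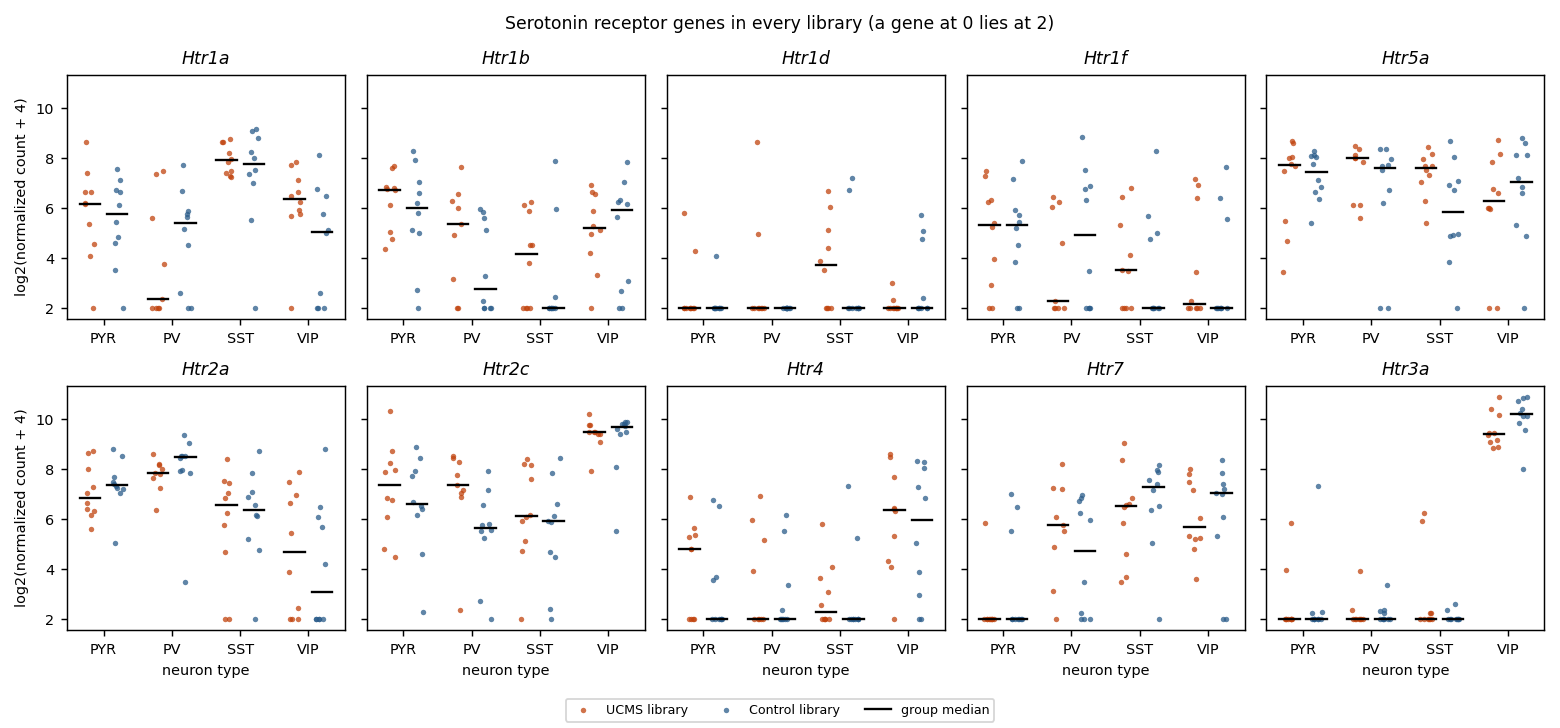
Normalized count of each receptor gene in every library on a log2(count + 4) scale, with UCMS libraries at the left and Control libraries at the right of each neuron type and a bar at the group median. Htr3a is separate in VIP libraries of both arms, Htr1a is high in SST libraries, and Htr1d lies at 0 in most.

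Among the Gi/o-coupled members, Htr1a, which as autoreceptor and postsynaptic receptor opens potassium channels, had its highest mean in SST libraries of both arms. In UCMS mice it had a lowest, median and highest value of 150.2, 239 and 437 normalized counts in SST neurons, against 0, 1.15 and 178 in PV neurons. In Control mice these values were 0, 219 and 577 in SST neurons, against 0, 38.9 and 209 in PV neurons. SST was the higher library in 8 of the 9 UCMS mice that had both types, and the groups overlapped in both arms. The log2 difference, SST minus PV, was 4.21 ± 0.80 in UCMS mice (SE; adjusted p = 3.37e-05, limma over all genes tested) and 2.48 ± 0.93 in Control mice (adjusted p = 0.142). A value below 0.05 is named a call in what follows. In UCMS mice VIP neurons, with 0, 79.5 and 230.4, also had more Htr1a than PV neurons (log2 difference 2.41 ± 0.80, adjusted p = 0.0327). That call was lost without any 1 of 7 mice (U602, U603, U606, U607, U608, U609 or U610), with adjusted p between 0.0544 and 0.0998, and without the 7 libraries under 6000000 reads (adjusted p = 0.0773). It was also lost with a constant of 16 (adjusted p = 0.0736), no filter (0.0658), quantile normalization (0.169) or the number of genes detected as a covariate (0.0674). PYR neurons held 0, 69.0 and 399.7 in UCMS mice and 0, 52.5 and 186 in Control mice. VIP neurons of Control mice held 0, 29.5 and 274. SST neurons were not called against PYR or VIP neurons in either arm. The limma adjusted p of PYR minus SST was 0.0766 in UCMS and 0.357 in Control mice. That of VIP minus SST was 0.217 in UCMS and 0.0998 in Control mice. Across the 4 types, the difference between arms in the type pattern of Htr1a had an unadjusted p of 0.206 (adjusted p = 1.00), so a difference between UCMS and Control mice was not detected for it.

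Htr5a, a Gi/o-coupled receptor without a settled role, had group medians between 65.0 normalized counts in Control SST and 251 in UCMS PV libraries. Its group means lay between 111 normalized counts in Control SST and 208 in UCMS PV libraries, and it was found in 20 of 20 PYR libraries. No pair of types was called for it in either arm. The widest gap in UCMS mice was between VIP neurons, with 131 ± 137, and PV neurons, with 208 ± 119 (SD, n = 10 and 9). That log2 difference was -1.5, with a 95% interval between -2.83 and -0.16 and an adjusted p of 0.153. VIP minus SST in UCMS mice was -1.35, with a 95% interval between -2.64 and -0.06 and a limma adjusted p of 0.304.

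Htr1b, a terminal autoreceptor and heteroreceptor that reduces transmitter release, had its highest mean in PYR libraries, where UCMS mice had 95.2 ± 64.5 and Control mice 95.3 ± 103 normalized counts (SD, n = 10). In SST libraries it had 24.3 ± 29.4 in UCMS and 29.5 ± 74.4 in Control mice, with 4 of 10 UCMS and 7 of 10 Control libraries at 0. PYR minus SST was 2.36 ± 0.85 in UCMS mice (adjusted p = 0.0811) and 2.64 ± 0.95 in Control mice (adjusted p = 0.0944), short of a call in each arm. Htr1f, another Gi/o receptor and a target of antimigraine drugs, ran between 25.6 ± 38.9 in UCMS SST and 94.4 ± 143 in Control PV libraries, and no pair was called. Its SD exceeded its mean in every group. Htr1d, the close relative of Htr1b, was not tested between types in Control mice, where its mean fell under the minimum of 10. In UCMS mice it passed that filter with 1 PV library, mouse U605, at 396 normalized counts, and no pair was called. In Control PV neurons all 10 libraries were at 0, and in UCMS PV neurons 7 of 9 were.

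The Gq/11-coupled members had opposite patterns in VIP neurons. Htr2c, whose transcript is edited by adenosine deaminases and which is a target of many antipsychotic drugs, was highest there. Its lowest, median and highest values in VIP libraries were 243, 712 and 1182 normalized counts in UCMS mice and 42.0, 818 and 959.8 in Control mice. PYR libraries held 18.5, 172 and 1287 in UCMS and 0.929, 93.6 and 476 in Control mice. PV libraries held 1.19, 163 and 371 in UCMS and 0, 46.8 and 241 in Control mice. The groups overlapped in both arms: the lowest VIP libraries, of UCMS mouse U601 and Control mice U3 and U6, lay below several libraries of the other types, and the PYR library of UCMS mouse U609, with 1287, lay above all VIP libraries. VIP was the higher library in 10 of 10 UCMS mice against SST, in 9 of 9 against PV and in 8 of 10 against PYR, and in 9 of 10 Control mice against each of these.

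For Htr2c, VIP minus SST was 3.16 ± 0.59 on the log2 scale in UCMS mice (adjusted p = 7.70e-05) and 3.70 ± 0.80 in Control mice (adjusted p = 7.09e-04). VIP minus PV was 2.10 ± 0.61 in UCMS mice (adjusted p = 0.0132) and 3.70 ± 0.80 in Control mice (adjusted p = 3.03e-04). VIP minus PYR was 2.18 ± 0.59 in UCMS mice (adjusted p = 0.0119) and 2.56 ± 0.80 in Control mice (adjusted p = 0.0401). The Control value for VIP minus PYR kept its call only when mouse U3 or U4 was the one left out; without any other mouse the adjusted p was between 0.058 and 0.129. In UCMS mice it was lost without U602, U604 or U606, with adjusted p between 0.0567 and 0.0674. VIP minus PV in UCMS mice was lost without U605, at 1.48 and an adjusted p of 0.0699, and with a constant of 1 (adjusted p = 0.061), library quality weights (0.106) or DESeq2 (0.0589). VIP minus PYR was lost with a constant of 1 in UCMS (adjusted p = 0.0867) and Control mice (0.109), and with no filter in Control mice (0.0716). Without the 7 libraries under 6000000 reads, VIP minus PYR in Control mice was 2.11 (adjusted p = 0.301) and the other 5 differences from VIP kept their calls. Among the other types no pair was called for Htr2c in either arm.

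Htr2a, the receptor through which serotonergic hallucinogens act, was lowest in VIP libraries and highest in PV libraries. PV neurons had 78.5, 228 and 385 normalized counts in UCMS mice and 7.28, 355 and 653 in Control mice (lowest, median, highest). PYR neurons had 44.4, 113 and 426 in UCMS mice and 28.7, 160.1 and 451 in Control mice. VIP neurons had 0, 25.3 and 232 in UCMS and 0, 7.18 and 442 in Control mice, with 3 UCMS and 5 Control libraries at 0. All PV and PYR libraries had Htr2a reads, though the ranges overlapped with VIP. VIP minus PV was -3.28 ± 0.77 in UCMS mice (adjusted p = 8.07e-04) and -3.85 ± 0.83 in Control mice (adjusted p = 2.75e-04), and VIP was the higher library in 1 of 9 UCMS and 1 of 10 Control mice. VIP minus PYR was -2.42 ± 0.74 in UCMS mice (adjusted p = 0.030) and -3.26 ± 0.83 in Control mice (adjusted p = 0.00525). The UCMS value was lost without U601, U604, U605, U606 or U608, with adjusted p between 0.0676 and 0.146, and with no filter (0.075), library quality weights (0.0956) or DESeq2 (0.0515). Without the 7 libraries under 6000000 reads, 4 of them from VIP neurons of Control mice, the Control differences were -2.47 for VIP minus PV (adjusted p = 0.102) and -2.18 for VIP minus PYR (adjusted p = 0.193), while both UCMS calls held. SST libraries, with means of 108 ± 104 in UCMS and 118 ± 125 in Control mice, lay between, and no pair with SST was called. PYR and PV libraries did not differ past the threshold: PYR minus PV had 95% intervals of -2.38 to 0.66 in UCMS and -2.22 to 1.04 in Control mice. Mouse U5 was lowest for Htr2a in the PYR and PV libraries of Control mice and at 0 in VIP, while its SST library held 133.

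Of the Gs-coupled members, Htr7, a receptor tied to circadian timing and mood in rodents, was sparse in pyramidal neurons and present in interneurons. Reads were found in 1 of 10 UCMS and 3 of 10 Control PYR libraries. SST libraries held 7.24, 88.4 and 526.4 normalized counts in UCMS mice and 0, 153 and 284 in Control mice (lowest, median, highest). PYR libraries held at most 53.9 in UCMS and 124 in Control mice, with a median of 0 in each arm. The ranges of PYR and SST overlapped in both arms. PYR minus SST was -3.77 ± 0.85 on the log2 scale in UCMS mice (adjusted p = 5.45e-04) and -3.31 ± 0.95 in Control mice (adjusted p = 0.0164). The Control value was lost without U1, U3 or U8, with adjusted p between 0.0509 and 0.0722.

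In UCMS mice Htr7 was also lower in PYR than in PV neurons, where it had 0, 50.1 and 289.7 (PYR minus PV -3.33 ± 0.88, adjusted p = 0.00321). It was higher in VIP than in PYR neurons of UCMS mice, with 8.25, 49.1 and 256 in VIP libraries, and VIP was the higher library in 10 of 10 mice (VIP minus PYR 3.69 ± 0.85, adjusted p = 0.00104). In Control mice these differences were -1.15 ± 0.95 (adjusted p = 0.599) and 2.73 ± 0.95 (adjusted p = 0.0823). The test of whether the type pattern differed between arms gave an unadjusted p of 0.351 for Htr7. The 3 interneuron types were not told apart: SST minus PV had 95% intervals of -1.29 to 2.17 in UCMS and 0.30 to 4.02 in Control mice (adjusted p = 0.888 in UCMS and 0.255 in Control mice), and VIP minus SST of -1.75 to 1.59 in UCMS and -2.43 to 1.29 in Control mice.

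Htr4, a Gs-coupled receptor studied as a target for rapid antidepressant action in rodents, had its highest mean in VIP libraries. VIP neurons had 0, 78.2 and 392 normalized counts in UCMS mice and 0, 70.1 and 318 in Control mice (lowest, median, highest). No other group had a mean above 28.1, and 4 to 8 libraries of each were at 0. VIP minus SST was called in UCMS mice at 3.06 ± 0.87 (adjusted p = 0.018), where VIP was the higher library in 8 of 10 mice, and was 2.61 ± 0.89 in Control mice (adjusted p = 0.0889). The UCMS call was lost without U603 (adjusted p = 0.0715) or U609 (adjusted p = 0.0778), and without the 7 libraries under 6000000 reads (adjusted p = 0.0736), and DESeq2 did not make it (adjusted p = 0.12). VIP minus PV was 2.44 ± 0.90 in UCMS and 2.53 ± 0.89 in Control mice, with an adjusted p of 0.062 in UCMS and 0.0612 in Control mice.

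Htr3a, the obligatory subunit of the serotonin-gated channel, showed the widest difference of the members. VIP libraries held 459.9, 681 and 1925 normalized counts in UCMS mice and 254, 1171 and 1894 in Control mice (lowest, median, highest). The median was 0 in PYR, PV and SST libraries of both arms, and the highest value outside VIP was 159, in the PYR library of mouse U9. The VIP values did not overlap with those of any other type in either arm. VIP minus PYR was 7.0 ± 0.84 in UCMS mice (adjusted p = 3.67e-12) and 7.5 ± 0.90 in Control mice (adjusted p = 4.01e-12). VIP minus PV was 7.24 ± 0.87 in UCMS and 7.86 ± 0.90 in Control mice. VIP minus SST was 6.72 ± 0.84 in UCMS and 7.99 ± 0.90 in Control mice, and over these comparisons the adjusted p lay between 2.60e-13 and 3.87e-11. Since most values outside VIP are 0, the size of these differences depends on the constant of 4 added before taking logs. Htr3a had reads in 17 of the 59 libraries outside VIP and exceeded 10 normalized counts in 6 of them. The PYR library of Control mouse U9 held 1.85 normalized counts of Vip, 1.85 of Prox1 and 258 of Adarb2 beside its 159 of Htr3a. The SST libraries of UCMS mice U604 and U609 held 71.5 and 56.3 of Htr3a, with 11.4 of Vip in U604 and 110.4 in U609, against means of 4423 in UCMS and 5104 in Control VIP libraries. Adarb2 stood at 89.0 in U604 and 47.9 in U609, and Prox1 at 136 in U604 and 21.6 in U609. VIP libraries of both arms averaged 6115 of Adarb2 and 2116 of Prox1.

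**Figure D3:**
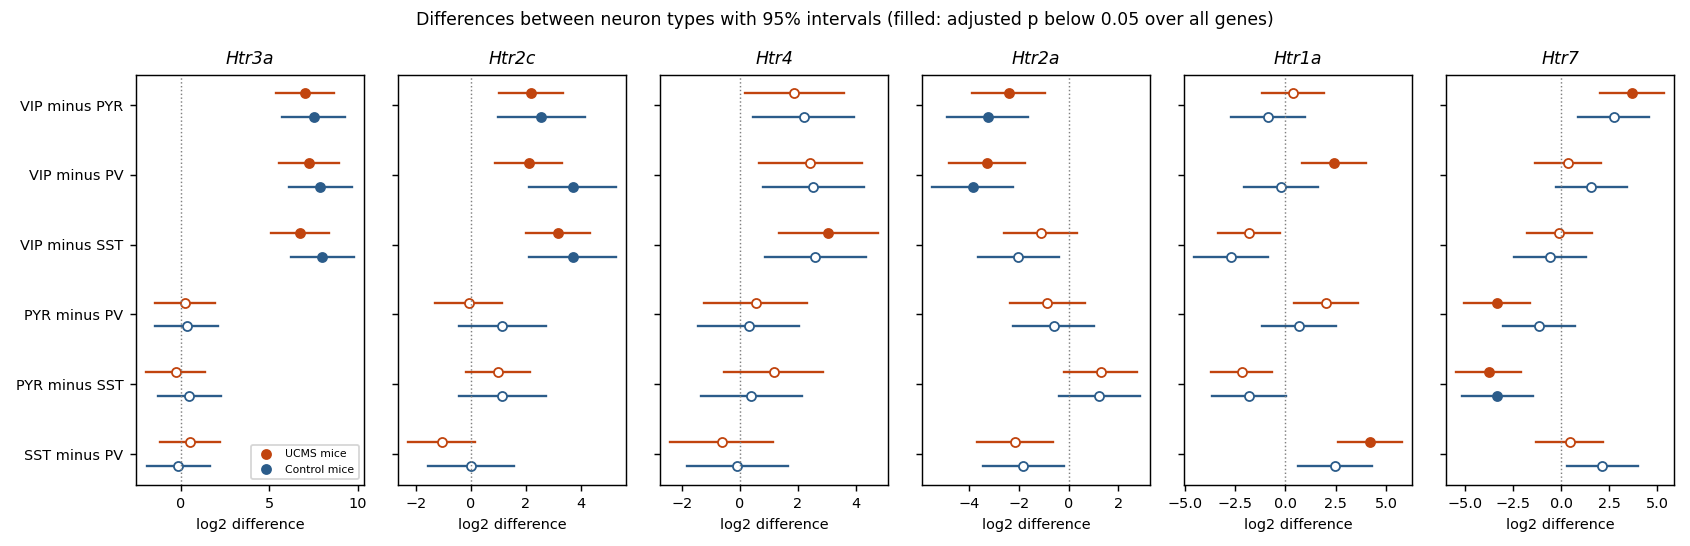
Log2 difference between each pair of neuron types (rows) for 6 receptor genes, with UCMS mice above Control mice in each row, bars for the 95% interval and filled points for an adjusted p below 0.05. Htr3a lies between 6.72 and 7.99 in the 3 comparisons with VIP, Htr2c is positive there, and Htr2a is negative in VIP minus PYR and VIP minus PV.

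In UCMS mice VIP minus PYR called 4 of the 10 members tested (Htr2c, Htr3a and Htr7 higher, Htr2a lower), against 5.32% of all genes tested. VIP minus PV called 4 (Htr1a, Htr2c and Htr3a higher, Htr2a lower), against 11% of all genes. VIP minus SST called 3 (Htr2c, Htr3a and Htr4, all higher), against 4.39%. PYR minus PV called 1 (Htr7, lower), against 11.3%, PYR minus SST called 1 (Htr7, lower), against 6.26%, and SST minus PV called 1 (Htr1a, higher), against 5.24%. In Control mice 9 members were tested. VIP minus PYR called 3 of them (Htr2c and Htr3a higher, Htr2a lower), against 4.12% of all genes. VIP minus PV called the same 3, in the same directions, against 6.83%, and VIP minus SST called 2 (Htr2c and Htr3a, higher), against 2.93%. PYR minus SST called 1 (Htr7, lower), against 4.53%. PYR minus PV called none, against 8.32%, and SST minus PV called none, against 3.68%; at an unadjusted p under 0.05 there was 1 member in PYR minus PV and 3 in SST minus PV, and edgeR and DESeq2 called 0 in both. With edgeR on the recovered reads 9 of the 23 member calls were not made: Htr2a and Htr2c in VIP minus PYR in both arms and in VIP minus PV in UCMS mice, Htr1a in VIP minus PV and Htr4 in VIP minus SST in UCMS mice, and Htr7 in PYR minus SST in Control mice. In at least 1 of the 6 pairs, 6 members were called in UCMS mice, against 20.2% of all genes, and 4 in Control mice, against 14.8%.

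Between UCMS and Control mice no member was called in any neuron type. Of all genes, 0.0808% were called in PYR and 0% in PV, SST and VIP neurons. Each type had 9 members tested; Htr1d in PYR and VIP and Htr3a in PV and SST neurons were under the minimum mean. The member with the smallest unadjusted p differed by type, being Htr7 in PYR, Htr2c in PV, Htr5a in SST and Htr3a in VIP neurons. Only 1 of these 36 tests, that of Htr5a in SST neurons, had an unadjusted p under 0.05, and edgeR and DESeq2 also called 0 members in each type. The median log2 fold change of the members tested was -0.01 in PYR, 0.96 in PV, 0.68 in SST and 0.27 in VIP neurons. Over all genes tested in the same types it was 0.10, 0.05, 0.15 and 0.17. The PYR median is the value of Htr3a, which had a median count of 0 in both arms and 159 in Control mouse U9. Htr1d, counted in PV neurons, had reads in 2 UCMS and 0 Control libraries there, with UCMS mouse U605 at 396. A shift of the members as a set was not tested.

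Htr2c in PV neurons had 1.19, 163 and 371 normalized counts in UCMS mice against 0, 46.8 and 241 in Control mice (lowest, median, highest). UCMS libraries exceeded the Control median in 8 of 9 cases, and the groups overlapped. The log2 fold change was 1.67 ± 0.89 (SE; 95% interval -0.08 to 3.42, p = 0.061, adjusted p = 0.982, limma). Htr5a in SST neurons had 38.5, 190.0 and 344 in UCMS mice against 0, 65.0 and 406 in Control mice, and the ranges overlapped. Its log2 fold change was 1.55 ± 0.77 (95% interval 0.05 to 3.04, p = 0.0434, adjusted p = 0.856). Htr3a in VIP neurons, at 856 ± 476 in UCMS and 1223 ± 511 in Control mice (SD, n = 10), changed by -0.50 ± 0.28 without a call (95% interval -1.04 to 0.04, p = 0.0677, adjusted p = 0.932), and by -0.27 without the libraries under 6000000 reads. Beside it, Gad1, which makes GABA, averaged 3284 ± 720.0 in UCMS and 4245 ± 934 in Control VIP libraries. Vip averaged 4423 ± 1295 in UCMS and 5104 ± 1333 in Control VIP libraries. In the same libraries Cck was higher in UCMS mice, at 1862 ± 945 against 1269 ± 552. Adarb2 had 5963 ± 1674 in UCMS and 6266 ± 1368 in Control mice. Summed VIP markers averaged 6823 in UCMS and 7095 in Control mice. The 8 markers of caudal ganglionic eminence interneurons summed to 17259 in UCMS and 17165 in Control mice. The part of these genes in the Htr3a value was not tested. Htr7 in PYR neurons, with reads in 1 UCMS and 3 Control libraries, had a log2 fold change of -0.92 ± 0.74 (95% interval -2.36 to 0.52, adjusted p = 0.892).

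Over all members tested in a type, most 95% intervals were wide. The middle size of an interval's half-width was 1.43 in PYR, 1.75 in PV, 1.67 in SST and 1.84 in VIP neurons, in log2 units. The narrowest limits were for abundant genes, such as Htr2c in VIP neurons (-0.39 to 0.94) and Htr3a in the same cells. Wide intervals hold both small and large fold changes, and the smallest change that these libraries could detect was not tested. With 1 mean per mouse over its types, no member was called (0% of all genes; 10 tested), and Htr2c had the largest average change, 0.88 ± 0.45 (95% interval -0.06 to 1.82, p = 0.0657, adjusted p = 0.759). No member was called for a stress effect that differed between types (0% of all genes), the smallest unadjusted p being 0.137, for Htr5a. Neither of these last tests had a member at an unadjusted p under 0.05, and edgeR and DESeq2 called 0 members for the second.

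**Figure D4:**
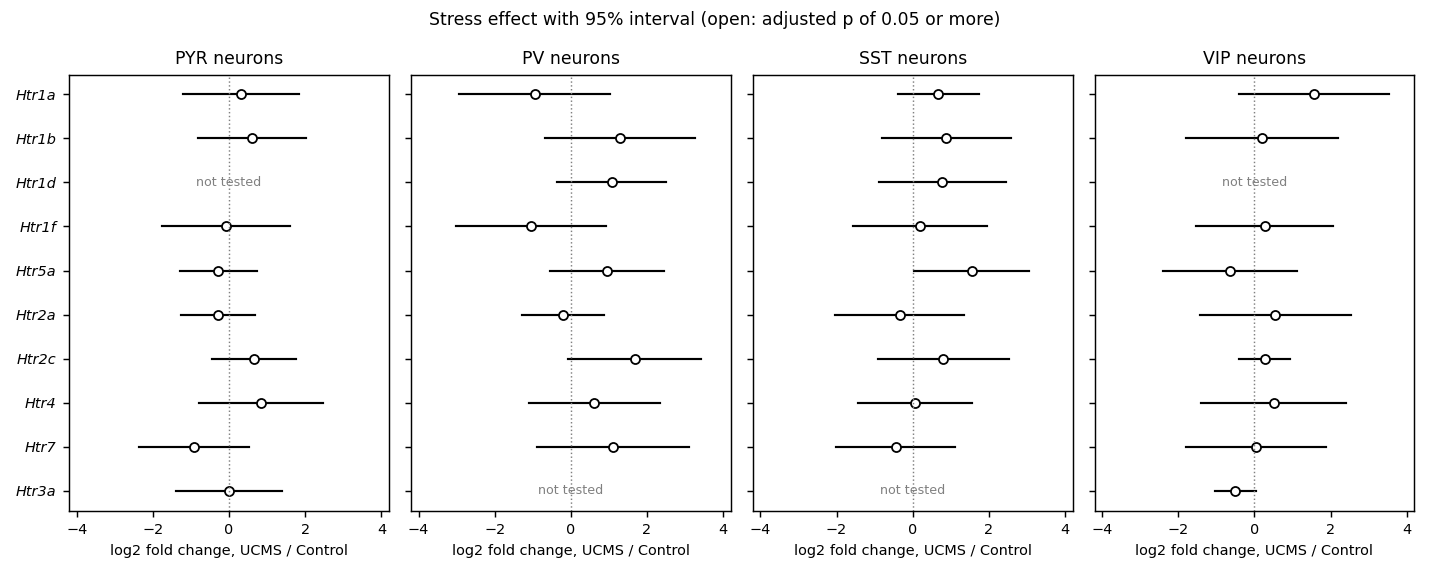
Log2 fold change, UCMS over Control, of each receptor gene (rows) in each neuron type (panels), with bars for the 95% interval. All points are open, since none had an adjusted p below 0.05, and only the interval of Htr5a in SST neurons, 0.05 to 3.04, leaves out 0.

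The remaining serotonin receptor genes were sparser, apart from Htr6. Htr6, which is Gs-coupled, had reads in 60 of 79 libraries and averaged 176 ± 218 normalized counts in UCMS VIP against 23.5 ± 38.6 in UCMS SST libraries (SD, n = 10). The VIP mean rests in part on mouse U601, at 759, and was 111 ± 79.6 without it (SD, n = 9). That pair was called in UCMS mice (VIP minus SST 3.29 ± 0.86, adjusted p = 0.00721) and kept its call with each mouse left out (adjusted p between 0.00469 and 0.0338), while edgeR did not call it (adjusted p = 0.221). In Control mice it was 0.77 ± 0.94 (adjusted p = 0.801), and the difference in type pattern between arms had an unadjusted p of 0.170. Htr2b had reads in 25 libraries and overlaps an exon of Psmd1, Htr5b had reads in 12, and Htr3b, the partner subunit of Htr3a, in 3. Htr2b was not called in any comparison, and Htr5b and Htr3b were under the minimum mean and not tested. The stress test of Htr2b in PYR neurons gave -1.57 ± 0.77 (unadjusted p = 0.0427, adjusted p = 0.767, limma). Of the 8 genes that make, move or break down serotonin, 7 were tested between types in Control mice and 3 to 6 for stress within a type, and none was called. In UCMS mice, with 4 tested, Maob, a monoamine oxidase, was called in 4 pairs (VIP minus PV 3.41 ± 0.91, adjusted p = 0.00404) and Slc18a2, the vesicular monoamine transporter, in 1; both are named after their values were seen.

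Genes that act downstream of the receptors also differed between types. Of all genes tested, 20.2% in UCMS and 14.8% in Control mice were called in at least 1 pair. Of 12 genes of the Gi/o arm, 8 were called in at least 1 pair in UCMS mice and 6 in Control mice. Rgs8, which speeds the return of G proteins to rest, averaged 1659 ± 550.0 normalized counts in Control VIP libraries, against 207 ± 387 in Control PV libraries (SD, n = 10). Rgs12, of the same family, averaged 1781 ± 659.6 in Control VIP libraries, against 173 ± 170.3 in Control PV libraries. VIP minus PV was 4.64 ± 0.51 for Rgs8 and 3.99 ± 0.66 for Rgs12, both called. Gnai2, a Gi alpha subunit, was lowest in PV neurons, at 289 ± 115 in Control mice (VIP minus PV 1.5 ± 0.35, adjusted p = 0.00102). Of 11 genes of the Gq/11 arm, 4 were called in UCMS and 7 in Control mice. Itpr1, the receptor that releases stored calcium, had 9439 ± 1180 in Control PYR against 5888 ± 1468 in Control PV libraries (PYR minus PV 0.72 ± 0.13, adjusted p = 3.75e-05). Prkca, a protein kinase C, was highest in VIP neurons of Control mice, at 1928 ± 473, against 735 ± 312 in SST neurons. VIP minus SST was 1.46 ± 0.24 (adjusted p = 2.36e-06), and PYR minus PV was -0.72 ± 0.24 (adjusted p = 0.0421).

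Of 14 genes of the Gs arm, 10 were called in at least 1 pair in UCMS mice and 8 in Control mice. Adcy2, an adenylyl cyclase, was lower in PV than in any other type of Control mice, at 418 ± 168 against 2008 ± 390 in SST neurons (SST minus PV 2.68 ± 0.40, adjusted p = 2.82e-05). Gnal, a Gs-family alpha subunit, was highest in PV neurons, at 1907 ± 443, against 726 ± 228 in PYR neurons (PYR minus PV -1.42 ± 0.24, adjusted p = 6.56e-07). Prkacb, a catalytic subunit of protein kinase A, was lower in VIP than in PV neurons of Control mice (VIP minus PV -0.91 ± 0.17, adjusted p = 1.34e-05). Of 12 genes whose products bind, sort, regulate or edit the receptors, 5 were called in UCMS and 4 in Control mice. Adarb1, which edits Htr2c transcripts, was highest in PV neurons, at 3225 ± 596, against 1309 ± 542 in VIP neurons (VIP minus PV -1.38 ± 0.20, adjusted p = 1.46e-08). Mpdz, a scaffold that binds Htr2c, was lower in SST neurons (VIP minus SST 1.83 ± 0.45, adjusted p = 0.00996). No gene of these lists was called by stress. The share of all genes called in at least 1 pair, 20.2% in UCMS and 14.8% in Control mice, is the background for these counts. The lists were not matched to that background by expression level, so the counts are a description only.

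For each member called in Control mice, the genes with the most similar profile over the 8 group means were found by the root mean square difference in centred log2 values, among 17427 genes. Nearest to Htr3a was Prox1, at 0.45, which averaged 2116 ± 596 normalized counts in VIP libraries and 54.5 or less in the other types (SD, n = 20). Adarb2 (0.54) and Egfr (0.66) came next, and Prox1 and Adarb2 are known markers of interneurons from the caudal ganglionic eminence. Nearest to Htr2c was another member, Htr4, at 0.40, followed by Itih5 (0.41) and Pde3a (0.45). Htr2a was nearest to Tmem120a (0.46), Abca7 (0.47) and Col16a1 (0.48), and Abca7 averaged 417 ± 365 in PV (n = 19) against 75.8 ± 59.8 in VIP libraries (n = 20). Htr7 was nearest to Sema6a (0.48), Dlx6 (0.51) and Amotl2 (0.55). Dlx6, a transcription factor of forebrain GABAergic neurons, averaged 8.55 ± 18.1 in PYR libraries against 83.9 or more in the interneuron types. These profiles share libraries and depth, and the likeness is a description only.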

How the data were processed

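Laser-cut cells gave 79 libraries, prepared for picogram amounts of total RNA with a kit that keeps strand, per the labels' protocols. Each value is a signal, namely the reads of a gene over the size factor of its library, which the authors deposited as normalized counts. The submitters' processing notes name HISAT2, SAMtools 1.3, DESeq2 and GRCm38 (mm10). How reads were assigned to genes, with which annotation and strand setting, is not given in the sources used here. Exon lengths came from GENCODE M21, matched by identifier (38636 of 38879 genes; 243 did not match).

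Reads were recovered by dividing a column by what 1 read is worth in it; 100% of the values came out whole, with a tolerance of 0.001 reads, and these reads gave depth and the count tests. The main test was limma 3.58.1 (R 4.3.3), with a mean-variance trend and robust moderation, on log2(normalized count + 4), for genes with a mean of at least 10 in the samples fitted, adjusted over all genes by Benjamini-Hochberg, with a threshold of 0.05. Fold changes on this scale understate the change of low genes. UCMS and Control mice were compared within each type, and averaged over types with 1 mean per mouse. The interaction and the 6 pairs of types had the mouse as a block, because a number marks 1 animal in every type. The pairs were fitted separately in UCMS and Control mice. The scripts were tested on simulated data. Alternatives were edgeR 4.0.16 and DESeq2 1.42.0 on the recovered reads, other constants (1 and 16), filters (none and a mean of 50), scalings, weights and blocks, and each mouse left out; leaving out the libraries under 6000000 reads was added after the data were seen.

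The text names all members, the other serotonin receptor genes and, from each list, up to 3 genes with the most pairs called in Control mice; 1 such gene is not reported here. It also names the 3 genes nearest in profile to each member called in Control mice. The members and lists were chosen with earlier results of these data known. P-values of the stress tests within a type and with 1 mean per mouse measure the spread between mice. Those of the pairs and the interaction measure the spread left after the mouse block, over all types in 1 fit.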

Additional observations from a re-analysis of the deposited data

Results flagged for a closer look

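Groups were examined on the log2(normalized count + 4) scale for a library whose gap to its nearest neighbour took more of the group's range than Dixon's 95% limit allows; 17 of 80 groups had one, where chance gives about 1 in 20 for normal values. That share does not hold for groups mostly at 0, where a single library with reads stands apart. Of these libraries 9 were low and 8 high.

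Low libraries stood apart for genes that the rest of the group expressed. Htr1a was at 0 in the SST library of Control mouse U10, where the next lowest had 42.3, and at 0 in the VIP library of UCMS mouse U601, where the next had 47.7. Htr2a had 28.7 normalized counts in PYR and 7.28 in PV neurons of Control mouse U5, against a next lowest of 128 and 228. Htr2c had 1.19 in PV neurons of UCMS mouse U605 (next lowest 114), 243 in VIP neurons of UCMS mouse U601 (next lowest 536) and 42.0 in VIP neurons of Control mouse U3 (next lowest 268). Htr3a had 254 in VIP neurons of Control mouse U1, where the next lowest had 769.7. Htr7 was at 0 in SST neurons of Control mouse U10, where the next lowest had 28.6.

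High libraries stood apart where more than 5 of the others were at 0. For Htr1d these were 13.1 in PYR neurons of Control mouse U5, 396 in PV neurons of UCMS mouse U605 and 4.00 in VIP neurons of UCMS mouse U602. For Htr3a they were 53.3 in PYR neurons of UCMS mouse U604, 159 in PYR neurons of Control mouse U9, 11.2 in PV neurons of UCMS mouse U601 and 6.32 in PV neurons of Control mouse U1. Htr7 had 53.9 in PYR neurons of UCMS mouse U606, the only library of that group with reads.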

How the results depend on the processing

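Direction over the alternatives was followed for 28 differences. These were the member calls between types, Htr6 in VIP minus SST in UCMS mice, and the stress test with the smallest unadjusted p in each type. None of them changed direction. For the other differences named in the text, direction over the alternatives is not reported here. Htr3a kept its call against each other type in both arms in all 12 alternatives run. The number of members called moved by more than 1.5 times as follows. With edgeR it was 1 in VIP minus PYR and 0 in PYR minus SST in Control mice, and 2 in VIP minus PYR and 1 in VIP minus PV in UCMS mice. With DESeq2 it was 5 in VIP minus PYR, 4 in VIP minus SST and 2 in PYR minus SST in Control mice, and 2 in PYR minus SST in UCMS mice. With library quality weights it was 4 in VIP minus SST and 2 in PYR minus SST in Control mice, and 2 in PYR minus PV and 3 in PYR minus SST in UCMS mice. PYR minus SST in UCMS mice had 2 with a constant of 16 and 2 with quantile normalization, and SST minus PV had 2 with the number of genes detected as a covariate. The cause of these changes was not tested.

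With each mouse left out in turn, members called in UCMS mice were 2 to 4 in VIP minus PYR (2 without U604 or U606), 3 to 5 in VIP minus PV, 2 to 3 in VIP minus SST, 1 to 2 in PYR minus PV (2 without U605 or U609), 1 to 2 in PYR minus SST (2 without U602, U604 or U608) and 1 to 2 in SST minus PV (2 without U605). In Control mice they were 2 to 3 in VIP minus PYR, 3 to 4 in VIP minus PV, 2 to 4 in VIP minus SST (4 without U10), 0 to 2 in PYR minus SST (0 without U1, U3 or U8, 2 without U4) and 0 in the other pairs. By stress 0 were called in each type without any mouse. Without the 7 libraries under 6000000 reads, Htr7 in VIP minus PYR was called in Control mice, and the counts were 2 in each Control pair with VIP. The replicate block (the mouse) changed no call: without it the pairs called the same members, 4, 4, 3, 1, 1 and 1 in UCMS mice, and a random replicate block, with a correlation of 0.0104 within a mouse, left 0 by stress.

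Over all genes, DESeq2 called between 1520 and 3334 genes a pair, edgeR between 312 and 1617 and limma between 512 and 1991. By stress in VIP neurons limma called 0 genes, edgeR 896 and DESeq2 83, with no member among them; in PYR neurons these counts were 13, 0 and 32. In PV neurons DESeq2 called 46 and in SST neurons 30, against 0 by limma and edgeR. The DESeq2 interaction did not converge for 7380 of 17427 genes. The average over types was not run in edgeR or DESeq2, and no mouse was left out for it or for the interaction. With 3 reads equal to between 1.87 and 7.18 normalized counts, genes near that level were limited by depth.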
